A study of Mus musculus with 7 samples.

Results

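The genes described here encode the proteins of the mitochondrial ribosome. They were taken as the protein-coding genes whose symbol starts with Mrpl (large subunit) or Mrps (small subunit), a rule that uses the symbol and no measured value. The count table held 53715 gene identifiers, of which 78 were members: 49 Mrpl and 29 Mrps genes. The tissue was interscapular brown adipose tissue, a fat depot that makes heat, taken from C57BL/6J males at 10 weeks of age for RNA sequencing. Wild-type mice (WT) were compared with mice lacking PGAM5 (KO), a protein phosphatase of mitochondria, without any other treatment in the labels. The labels list 3 WT and 4 KO mice as separate individuals, and the analysis covers WT 1 to WT 3 and KO 1 to KO 3. KO replicate 4 was not analysed here. How the Pgam5 allele was made, in which cells it was lost and whether the WT mice were littermates is not given in the sources used here.

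The mitochondrial ribosome translates the few mRNAs of the mitochondrial genome, which encode core subunits of the respiratory chain and of ATP synthase. Its rRNAs come from the mitochondrial genome, whereas all its proteins are encoded in the nucleus, made in the cytosol and imported. Some of these proteins have counterparts in bacterial ribosomes and others are found only in mitochondria. The large subunit forms peptide bonds, and the small subunit holds the mRNA and decodes it. Brown fat is rich in mitochondria and makes heat through the uncoupling protein UCP1.

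Total counts per library ran from 18034204 to 33617762. Pgam5, the gene removed, was counted 167, 122 and 186 times in the WT libraries and 1, 3 and 11 times in those of KO (log2 fold change -4.84, edgeR quasi-likelihood test, Benjamini-Hochberg adjusted p = 0.0243). Levels are given as CPM, counts relative to the library's size, scaled between libraries with the trimmed mean of M values (TMM). The tissue's defining marker Ucp1 was present in every library, from 1638 to 5974 CPM. The 10 brown adipocyte markers summed to 5549 to 6285 CPM in WT and 7186 to 9172 CPM in KO, a gap set by Ucp1: the other 9 summed to 3148 to 4248 CPM in WT and 3198 to 4050 CPM in KO. Of the 10, 4 had a positive and 6 a negative log2 fold change, with a median of -0.08. Of the 12 skeletal muscle markers, those other than Myl1 summed to 10.0, 12.3 and 52.1 CPM in WT and 2.27, 44.9 and 4.25 CPM in KO, so WT 3 and KO 2 were high. The 6 endothelial markers, all with a positive fold change, summed to 428, 302 and 554 CPM in WT and 372, 614 and 786 CPM in KO. These groups overlapped, with WT 2 lowest and KO 3 highest. The 5 erythrocyte markers, all with a negative fold change, summed to 722 to 901 CPM in WT and 499 to 758 CPM in KO. The 9 T, NK and B cell markers summed to 9.86, 6.20 and 6.56 CPM in WT and 15.5, 13.3 and 20.0 CPM in KO. These groups did not overlap, at low levels, and the 5 of these markers that were tested all had a positive fold change. The pan-adipocyte, macrophage and fibroblast sums overlapped between WT and KO. The part of these cell types in any result was not tested. Genes of the mitochondrial genome held 32.5%, 43.0% and 30.3% of the counts in WT and 34.1%, 28.2% and 19.7% in KO. The highest of these shares was that of WT 2 and the lowest that of KO 3, and both libraries also lay at opposite ends of the first principal component, at -65.0 and 66.8 against -13.0 to 8.23 in the other 4 libraries. Many results are given with a second value, without both libraries. A result given alone can have moved without them too. In tissue RNA, fewer cells of a type and less RNA per cell cannot be told apart.

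The members lay on 17 chromosomes, most often on chromosome 11 with 11 members and chromosome 17 with 8. Promoter windows, from 250 bases before to 50 bases after the transcription start (RefSeq, GRCm38.p6), were available for 43 Mrpl and 26 Mrps genes. They were searched on both strands for 3 motifs of factors that are textbook regulators of nuclear genes for mitochondrial proteins. These were GCGC, any base and TGCGC in a row for NRF1 (nuclear respiratory factor), CCGGAAG for the ETS family, which includes GABPA, and AAGATGGC for YY1. The ETS and YY1 motifs can overlap by the shared letters AAG, which was found in 0 member windows. NRF1 motifs were present in 10 Mrpl windows (23.3%) and 3 Mrps windows (11.5%), against 7.45% of 16507 protein-coding genes. ETS motifs were present in 34.9% of Mrpl and 42.3% of Mrps windows, against 13.4% of protein-coding genes. YY1 motifs were present in 14% of Mrpl and 23.1% of Mrps windows, against 3.64%. At least 1 of the 3 motifs was found in 65.1% of Mrpl windows, 57.7% of Mrps windows, 56.2% of the windows of 64 cytosolic ribosomal protein genes and 21.7% of those of all protein-coding genes. Over all 32851 windows of the table the shares were 4.60% for NRF1, 8.86% for ETS, 2.75% for YY1 and 14.7% for any. A match describes letters in a window and does not show that a factor binds there.

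Stretches ending just before the first start site in RefSeq or GENCODE are shown for 4 members. Mrps6 and Mrps27 had the lowest and the highest fold change of all members. Mrps21 and Mrpl12 hold the same 10 bases of an NRF1 motif on the gene's own strand, as do Mrpl30 and Mrps9, which are not shown. Mrpl14, Mrpl45, Mrpl57 and Mrps26, also not shown, hold these bases on the opposite strand. Capitals mark the motif match. They are read 5′ to 3′ on the gene's own strand.
Mrps6 (chr16:92058170-92058269, plus strand, no match in capitals): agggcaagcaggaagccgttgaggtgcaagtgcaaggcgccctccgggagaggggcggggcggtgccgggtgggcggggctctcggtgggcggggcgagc
Mrps27 (chr13:99344706-99344785, plus strand, ETS motif read on the opposite strand): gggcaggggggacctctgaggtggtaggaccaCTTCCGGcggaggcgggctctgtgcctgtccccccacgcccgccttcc
Mrps21 (chr3:95871520-95871619, minus strand, NRF1 motif): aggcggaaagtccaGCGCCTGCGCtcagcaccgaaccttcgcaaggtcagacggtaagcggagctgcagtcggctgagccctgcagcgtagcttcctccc
Mrpl12 (chr11:120484513-120484612, plus strand, NRF1 motif): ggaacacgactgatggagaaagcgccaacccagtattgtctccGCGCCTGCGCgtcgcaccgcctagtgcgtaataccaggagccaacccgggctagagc
The match began 91 bases before the RefSeq start in Mrps21 and 81 bases before it in Mrpl12, while these genes had log2 fold changes of -0.57 and 0.32 (0.01 and 0.40 without WT 2 and KO 3), neither passing the test described below. The RefSeq gene C920021L13Rik also begins within the Mrps21 stretch, on the other strand.

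Many members share a start region with a gene on the other strand. A protein-coding gene starting on the opposite strand within 1000 bases was found for 24 of 49 Mrpl genes (49.0%) and 9 of 29 Mrps genes (31.0%). The share was 19.0% for cytosolic ribosomal protein genes and 10.9% for all 21890 protein-coding genes of GENCODE. In 1 pair both genes are members: Mrps11 and Mrpl46, whose log2 fold changes were 0.35 (SE 0.23) and 0.20 (SE 0.24), or 0.46 and 0.51 without WT 2 and KO 3. Exons of this pair overlap on opposite strands. The strand setting of the counting is not given, so reads of the overlap cannot be assigned to either gene. Several partners also encode mitochondrial proteins. Mrps12 is paired with Sars2, the mitochondrial seryl-tRNA synthetase, Mrpl43 with Twnk, the helicase of mitochondrial DNA, and Mrpl36 and Mrpl47 with the complex I subunits Ndufs6 and Ndufb5.

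Levels were compared between genes per length, as TPM (counts divided by length and scaled to the same total in each library), computed from the summed exon length of each gene. All 29 Mrps and 48 of 49 Mrpl genes passed the filter on low counts, with 213 to 6514 counts per member and library. The exception was Mrpl53, a large-subunit protein gene, with 0 counts in each of the 6 libraries, which allows up to 3 counts or 0.0883 to 0.200 CPM by counting error alone. Its exons overlap those of Gm42688 on the same strand (94 counts over all libraries) and of Ccdc142os on the opposite strand. How reads overlapping 2 genes were counted is not given in the sources used here, and this 0 does not show that Mrpl53 is silent. Over all members the median level was 46.6 TPM for Mrpl and 30.8 TPM for Mrps genes, against 202 TPM for cytosolic ribosomal protein genes.

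The highest large-subunit levels were those of Mrpl34 at 325 ± 59 TPM, Mrpl2 at 127 ± 20, Mrpl30 at 123 ± 16 and Mrpl18 at 113 ± 7.8 (mean ± SD over 6 libraries). The lowest were Mrpl19 at 8.90 ± 1.8 and Mrpl33 at 10.8 ± 2.2 TPM. Among Mrps genes, Mrps36 (207 ± 25), Mrps21 (186 ± 31), Mrps24 (140 ± 31) and Mrps23 (91.2 ± 18) were highest, and Mrps30 (9.60 ± 1.5) and Mrps25 (9.66 ± 0.93) lowest. Of the neighbours named in this order, only Mrpl34 and Mrpl2 differed beyond their spread. The others overlapped over the 6 libraries, from Mrpl2 to Mrpl18, from Mrps36 to Mrps23, and at the low ends of both subunits. Mrps36 is known as a subunit of the 2-oxoglutarate dehydrogenase complex of the citric acid cycle rather than of the ribosome. The highest and lowest tested Mrpl genes differed 36.6-fold. Among the 26 Mrps genes whose proteins structures place in the small subunit, Mrps21 and Mrps25 were the extremes and differed 19.2-fold. The length used shapes this order. With the length of the longest principal transcript in place of all exons, the medians were 58.1 and 44.7 TPM, Mrpl33 stood at 134 TPM, Mrpl42 (372 TPM) and Mrpl30 (331 TPM) came before Mrpl34 (262 TPM), and the Spearman correlation between the 2 scales over 77 members was 0.74.

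**Figure D1:**
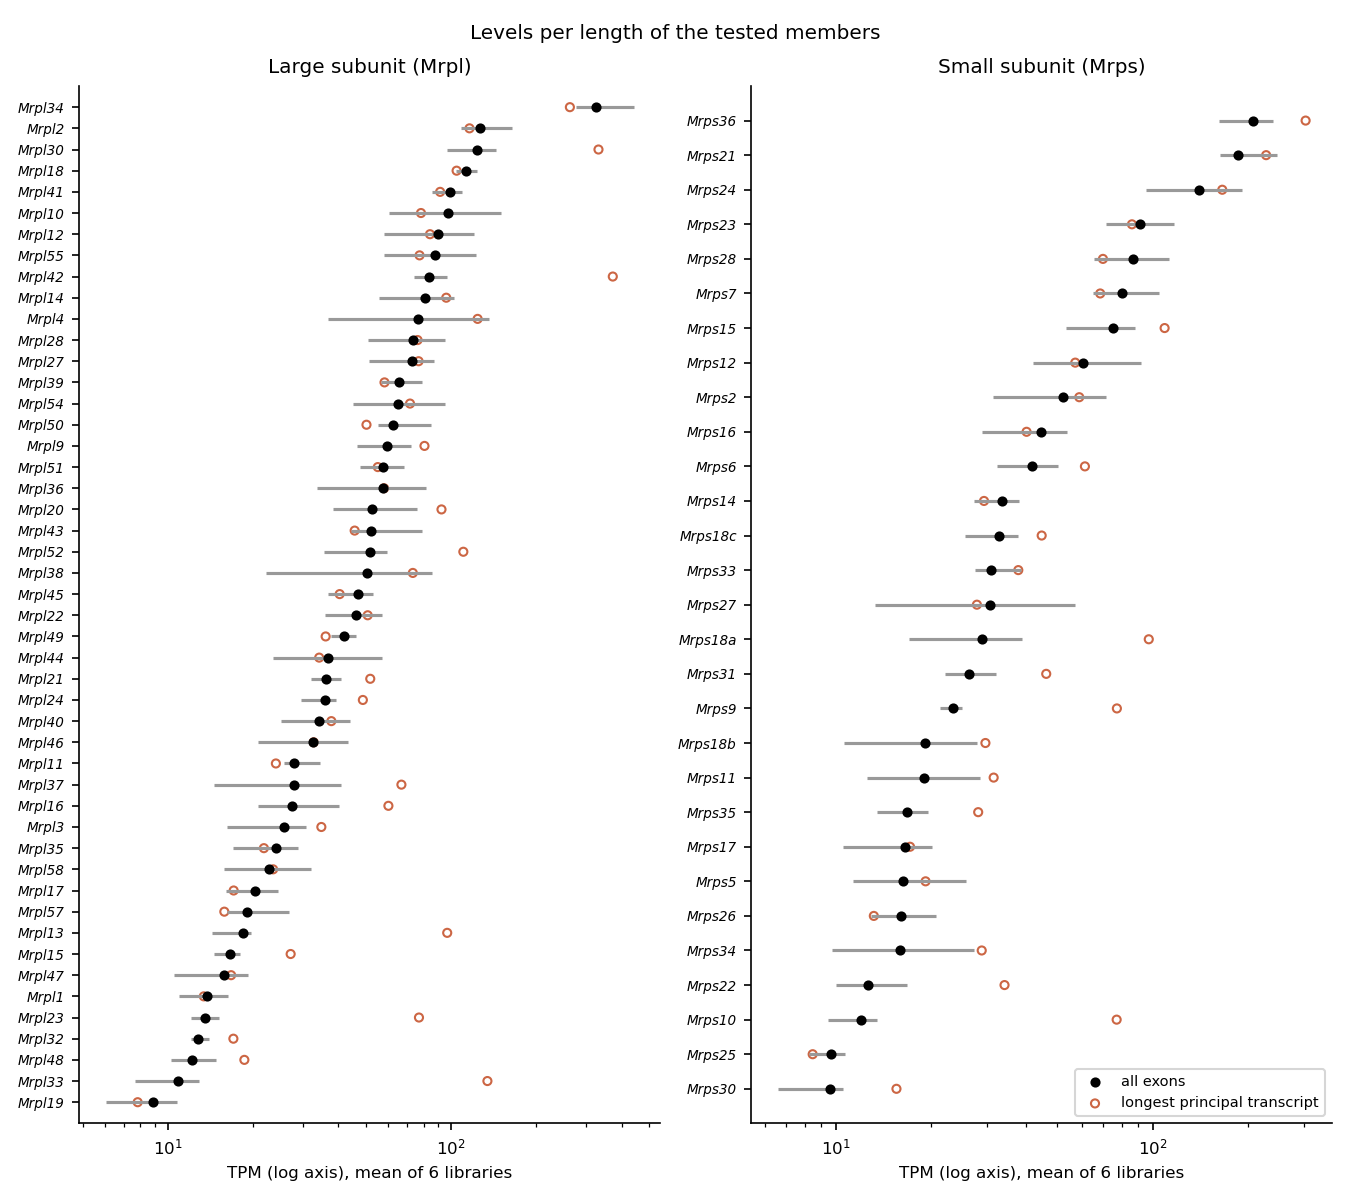
Level per length (TPM, log axis) of the 48 tested Mrpl and 29 tested Mrps genes. Filled points are means over 6 libraries from summed exon length, lines run from the lowest to the highest library, and open points use the longest principal transcript. On summed exon length Mrpl34 is the highest Mrpl gene at 325 TPM, on principal-transcript length Mrpl42 at 372 TPM, and Mrpl33 also moves far.

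The comparison asks whether loss of PGAM5 changes the mRNAs of the mitochondrial ribosome. No member passed the test in brown fat of KO mice: 0 of 48 Mrpl and 0 of 29 Mrps genes had an adjusted p under 0.05 (edgeR quasi-likelihood test, Benjamini-Hochberg over 15123 genes), and 0.0595% of all genes did. The lowest adjusted p of a member was 0.309. At an unadjusted p under 0.05 there were 2 Mrpl genes (Mrpl4 and Mrpl36, both positive) and 2 Mrps genes (Mrps27 positive, Mrps6 negative), 4 of 77 members, against 11.8% of all genes. At an adjusted p under 0.1 there were still 0 members, and 0.086% of all genes. DESeq2 also called 0 members, against 0.603% of the 27861 genes it tested, with 3 members at an unadjusted p under 0.05, against 7.06%. It was run without the filter on low counts, so its shares are over a different set of genes. The median log2 fold change, KO minus WT, was -0.04 over Mrpl genes, of which 19 of 48 were positive. It was -0.05 over Mrps genes, of which 13 of 29 were positive, against -0.0019 over all genes with 49.8% positive. The members' standard errors had a median of 0.18. For 72 of 77 members the 95% interval lay within a 2-fold change in either direction, and for 37 within a 1.5-fold change. The 5 members whose interval reached past 2-fold were Mrpl11, Mrps6, Mrps21, Mrps18c and Mrps27.

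**Figure D2:**
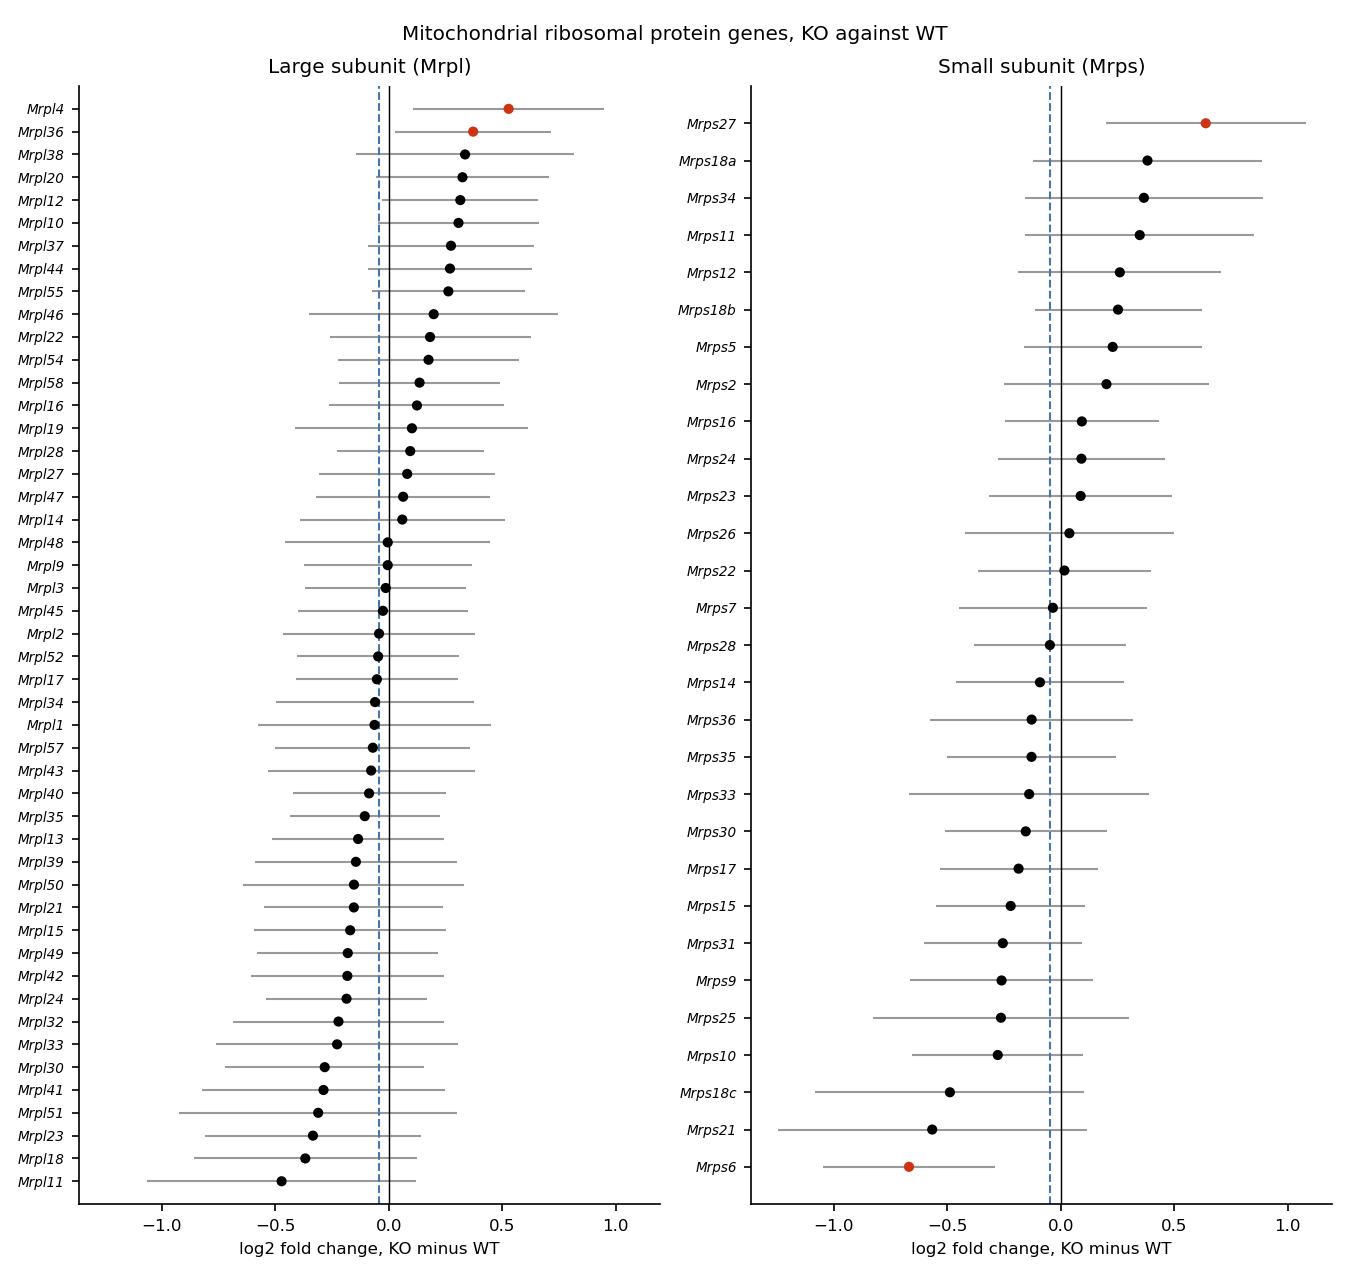
Log2 fold change (KO minus WT) of each tested Mrpl gene (left) and Mrps gene (right), with 95% intervals from the edgeR fit. Red points have an unadjusted p under 0.05 and the dashed line is the subunit's median, -0.04 and -0.05. Values run from -0.47 (Mrpl11) to 0.53 (Mrpl4) and from -0.67 (Mrps6) to 0.64 (Mrps27).

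The groups did not overlap for 13 members. They were higher in KO for 8 Mrpl genes (Mrpl4, Mrpl10, Mrpl12, Mrpl20, Mrpl36, Mrpl37, Mrpl44 and Mrpl55) and 2 Mrps genes (Mrps18b and Mrps27), where 10.1% of all genes were higher without overlap. They were lower in KO for Mrps6, Mrps15 and Mrps31, where 9.39% of all genes were lower without overlap.

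In the large subunit, Mrpl4 encodes the mitochondrial form of L4, a protein that binds rRNA and reaches into the wall of the exit tunnel. It had 77.4, 67.9 and 81.2 CPM in WT and 95.1, 97.6 and 134 CPM in KO. All KO values lay above all WT values, and KO 3 was well above the rest. The log2 fold change was 0.53 (SE 0.19, edgeR adjusted p = 0.375), and 0.28 without WT 2 and KO 3. The gene (ENSMUSG00000003299.10) lies at chr9:21002738-21008839 (mm10).

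Mrpl36, the mitochondrial counterpart of bacterial L36, one of the smallest ribosomal proteins, had 24.8, 27.5 and 30.1 CPM in WT and 37.4, 33.6 and 35.7 CPM in KO. The groups did not overlap and no library stood apart. Its log2 fold change was 0.37 (SE 0.15, edgeR adjusted p = 0.414), and 0.37 also without WT 2 and KO 3. Mrpl36 (ENSMUSG00000021607.9, chr13:73328513-73332178) overlaps Ndufs6 on the opposite strand, where starts lie 29 bases apart. Ndufs6 had 20480 counts over all libraries against 4385 for Mrpl36, and a log2 fold change of -0.45 (SE 0.26), or -0.06 without WT 2 and KO 3. The strand setting of the counting is not given in the sources used here, so reads of overlapping opposite genes cannot be told apart. This limit is not particular to Mrpl36. Exons of 33 of 78 members overlap another gene, for 28 on the opposite strand and for 8 on the same strand, some on both. The overlapping genes differ in counts over all libraries, such as 21656 for Tcp1 beside Mrpl18 and 6 for Gm11574 beside Mrpl10. Mrps24 overlaps Urgcp (7612 counts) on the same strand.

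Mrpl10, Mrpl12 and Mrpl11 build the stalk and its base, which recruit translation factors to the ribosome. Mrpl12 had 54.2, 62.5 and 59.0 CPM in WT and 79.7, 69.2 and 69.8 CPM in KO (log2 fold change 0.32, SE 0.15, edgeR adjusted p = 0.437). Mrpl10 had 65.1, 72.6 and 73.1 CPM in WT and 84.6, 79.6 and 96.8 CPM in KO, a log2 fold change of 0.31 (SE 0.16). In both genes each KO library lay above each WT library. Mrpl11, at the stalk base, had 42.3, 78.3 and 39.4 CPM in WT and 44.1, 38.5 and 32.5 CPM in KO. Its groups overlapped, and WT 2 alone was far above the other libraries. Its log2 fold change of -0.47 (SE 0.26) became 0.02 without WT 2 and KO 3. Mrpl20, a protein of the rRNA core, had 31.8, 44.8 and 35.2 CPM in WT and 46.8, 45.5 and 47.5 CPM in KO, a log2 fold change of 0.33 (SE 0.17).

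Proteins near the catalytic core were taken as Mrpl2, Mrpl3, Mrpl4, Mrpl16 and Mrpl27, although Mrpl4 also reaches into the tunnel wall. Their median log2 fold change was 0.08, with 3 of 5 positive, and 0.17 without WT 2 and KO 3. Mrpl16, next to the tRNA sites, had a log2 fold change of 0.12 (SE 0.17). Proteins around the exit of the tunnel, through which the new peptide reaches the inner membrane, had a median of -0.03, and 0.16 without WT 2 and KO 3. Among them were Mrpl23 (-0.33, SE 0.21), Mrpl24 (-0.19, SE 0.16), Mrpl45 (-0.03, SE 0.17), which attaches the ribosome to the inner membrane, and Mrpl44 (0.27, SE 0.16), which has an RNase III-like fold. The central protuberance, where the subunits face the tRNAs, had a median of -0.0039 over 5 genes that ran from -0.37 (Mrpl18, SE 0.22) to 0.34 (Mrpl38, SE 0.21). Without WT 2 and KO 3 these values were 0.0005 for Mrpl18, -0.0038 for Mrpl38, -0.07 for Mrpl23, -0.03 for Mrpl24 and 0.16 for Mrpl45. Mrpl58, a peptidyl-tRNA hydrolase related to release factors and built into the large subunit, had a log2 fold change of 0.14 (SE 0.16). These places in the ribosome were assigned after the values were seen, and no place had a called gene.

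In the small subunit, Mrps6 had the smallest p of all members. Its protein is the counterpart of bacterial S6 on the platform. It had 34.5, 46.6 and 36.4 CPM in WT and 25.2, 23.4 and 25.3 CPM in KO. All KO values lay close together below all WT values. The log2 fold change was -0.67 (SE 0.17, 95% interval -1.05 to -0.29, edgeR adjusted p = 0.309). It was -0.54 without WT 2 and KO 3 and lay between -0.75 and -0.53 over all settings tried. Mrps6 (ENSMUSG00000039680.9, chr16:92058270-92112227) shares exonic sequence, on the same strand, with Slc5a3, the gene of the sodium and myo-inositol cotransporter. Slc5a3 had 41.4, 42.7 and 112 CPM in WT and 34.6, 37.4 and 18.1 CPM in KO, with -1.12 as its log2 fold change (SE 0.41, edgeR adjusted p = 0.375). WT 3 lay far above the rest for Slc5a3, and without WT 3 this fold change was -0.49 (SE 0.29). How reads in the shared sequence were assigned is not given in the sources used here.

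Mrps27, a mitochondria-specific protein with pentatricopeptide repeats, was the member with the highest log2 fold change. It had 26.3, 19.7 and 23.4 CPM in WT and 30.5, 33.1 and 44.8 CPM in KO. The groups did not overlap, with WT 2 lowest and KO 3 highest. The log2 fold change was 0.64 (SE 0.20, 95% interval 0.20 to 1.08, edgeR adjusted p = 0.350), and 0.36 without these libraries. Mrps27 (ENSMUSG00000041632.6) lies at chr13:99344786-99415562, and Ptcd2, which starts 81 bases away on the opposite strand, had a log2 fold change of 0.18 (SE 0.15), or 0.09 without WT 2 and KO 3.

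Mrps18a, Mrps18b and Mrps18c are 3 paralogs of the single bacterial S18, of which Mrps18c takes the bacterial place beside Mrps6, Mrps18b sits elsewhere in the small subunit and Mrps18a is found in the large subunit. Mrps18a had 31.2, 58.1 and 44.8 CPM in WT and 66.1, 54.7 and 53.8 CPM in KO, with overlap, a log2 fold change of 0.38 (SE 0.23). Mrps18b had 17.9, 15.7 and 17.8 CPM in WT and 19.6, 19.8 and 22.0 CPM in KO, without overlap, a log2 fold change of 0.25 (SE 0.16). Mrps18c had 16.7, 27.9 and 17.7 CPM in WT and 16.5, 17.3 and 10.4 CPM in KO, a log2 fold change of -0.49 (SE 0.26). For Mrps18c the outer values were WT 2 and KO 3, and without them the log2 fold change was -0.02. For Mrps18a it was then 0.67 and for Mrps18b 0.14. None of the 3 passed (edgeR adjusted p 0.498 for Mrps18a, 0.527 for Mrps18b and 0.471 for Mrps18c with all 6 libraries).

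**Figure D3:**
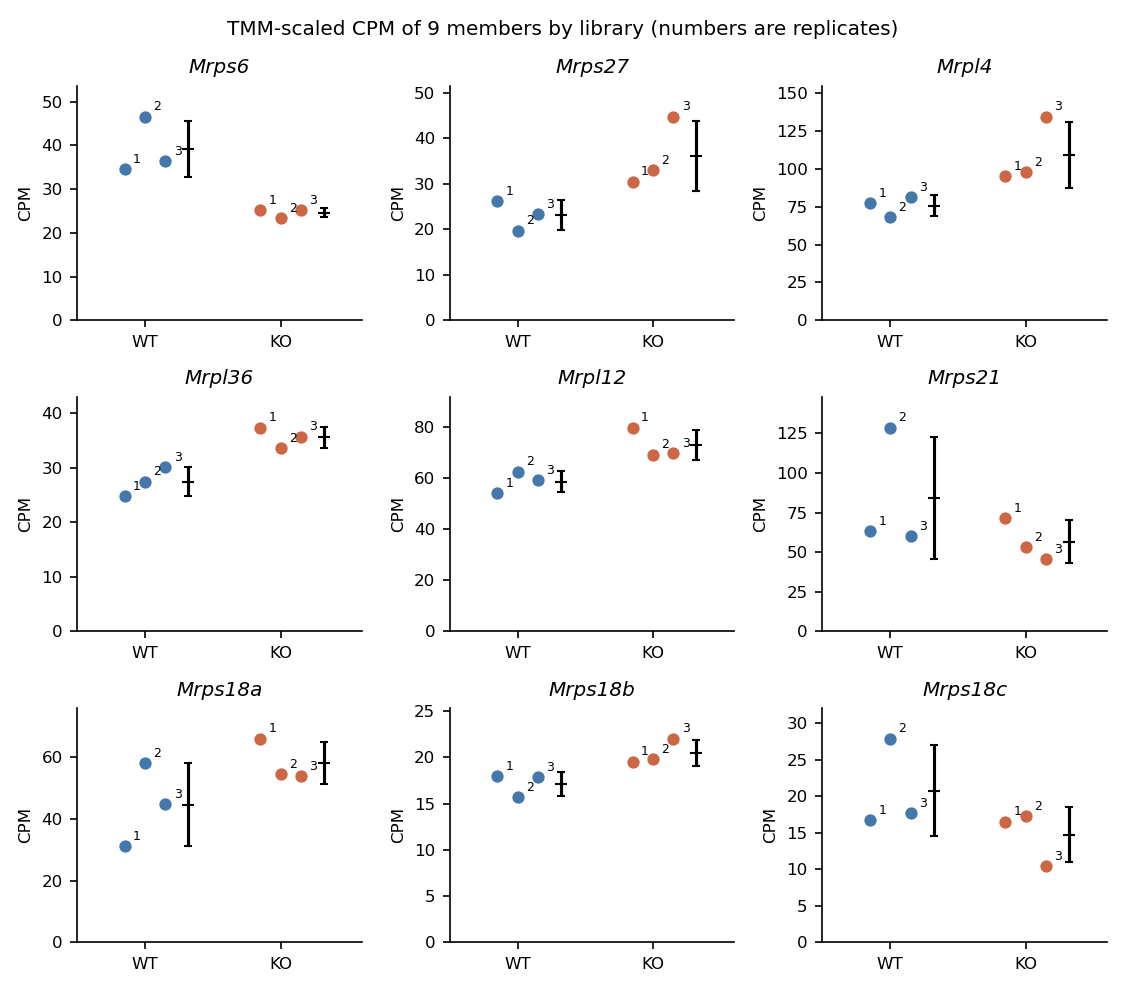
TMM-scaled CPM of 9 members in each library, numbered by replicate, with mean and SD (n = 3) beside each group. WT and KO do not overlap in Mrps6, Mrps27, Mrpl4, Mrpl36, Mrpl12 and Mrps18b, whereas Mrps21 and Mrps18c are set by WT replicate 2 or KO replicate 3.

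Mrps21, the counterpart of bacterial S21 on the platform, had 63.5, 129 and 60.1 CPM in WT and 71.7, 53.0 and 45.4 CPM in KO. Only WT 2 lay far from the rest, and the log2 fold change of -0.57 (SE 0.30) was 0.01 without WT 2 and KO 3. The 5 platform proteins (Mrps6, Mrps11, Mrps15, Mrps18c and Mrps21) had a median of -0.49 with 4 of 5 negative, and -0.02 with 3 of 5 negative without those libraries. The proteins that line the mRNA path or the decoding site were Mrps2 (0.20, SE 0.20), Mrps5 (0.23, SE 0.18) and Mrps12 (0.26, SE 0.20). All 3 log2 fold changes were positive, where 49.8% of all genes were. Over all settings tried they ran from 0.04 to 0.42, 0.11 to 0.34 and 0.12 to 0.47. Head proteins had a median of -0.09 with 1 of 5 positive, and 0.08 with 3 of 5 positive without WT 2 and KO 3. These places, too, were assigned after the values were seen, and genes of a place are not replicates. Mrps7 of the head, next to the exit-site tRNA, had a log2 fold change of -0.03 (SE 0.19), or 0.13 without those libraries. Mrps30, which structures place in the large subunit, had -0.15 (SE 0.16), and Mrps36 -0.13 (SE 0.20), or 0.07 without WT 2 and KO 3. Members with a bacterial counterpart (46 genes) and mitochondria-specific members (30 tested) had medians of -0.04 each, and of 0.09 and 0.13 without WT 2 and KO 3. Assigning Mrps18a and Mrps30 to the large subunit and leaving out Mrps36 gave medians of -0.04 for 50 large-subunit and -0.04 for 26 small-subunit genes, and of 0.11 and 0.12 without those libraries.

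Summed over each subunit, Mrpl mRNAs made up 2504, 3106 and 2508 CPM in WT and 2860, 2508 and 2556 CPM in KO. Mrps mRNAs summed to 1338, 1645 and 1358 CPM in WT and 1516, 1323 and 1349 CPM in KO. In both subunits WT 2 was highest, KO 1 second, and the other 4 libraries lay close together. The ratio of Mrpl to Mrps sums was nearly constant, at 1.87, 1.89 and 1.85 in WT and 1.89, 1.90 and 1.89 in KO. As a plain share of all counts, Mrpl mRNAs took 0.248%, 0.258% and 0.253% in WT and 0.288%, 0.275% and 0.276% in KO, and Mrps mRNAs 0.132%, 0.137% and 0.137% in WT and 0.153%, 0.145% and 0.146% in KO. These shares were higher in each KO library, beside the differing share of the mitochondrial genome. With genes of the mitochondrial genome taken out of the total, the Mrpl share was 0.367%, 0.453% and 0.364% in WT and 0.437%, 0.383% and 0.344% in KO, and the groups overlapped. The Mrps share then overlapped too, at 0.196%, 0.240% and 0.197% in WT and 0.232%, 0.202% and 0.181% in KO.

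Deviations of single libraries were shared across the members. In WT 2, 38 of 48 Mrpl and 23 of 29 Mrps genes lay above their own mean over the 6 libraries, and in KO 1 these were 43 and 23. The median deviation from the gene's mean log2 CPM was 0.19 (Mrpl) and 0.21 (Mrps) in WT 2 and 0.13 and 0.11 in KO 1. It lay between -0.10 and -0.06 in the other 4 libraries for both subunits. Cytosolic ribosomal protein genes, which build the other translation machinery, ranged more widely: their median deviation was 0.74 in WT 2 and -0.75 in KO 3. The 13 mRNAs that the mitochondrial ribosome translates had 0.84 in WT 2 and -0.70 in KO 3. KO 3, lowest for both of these sets, was at -0.08 for Mrpl and -0.07 for Mrps genes.

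**Figure D4:**
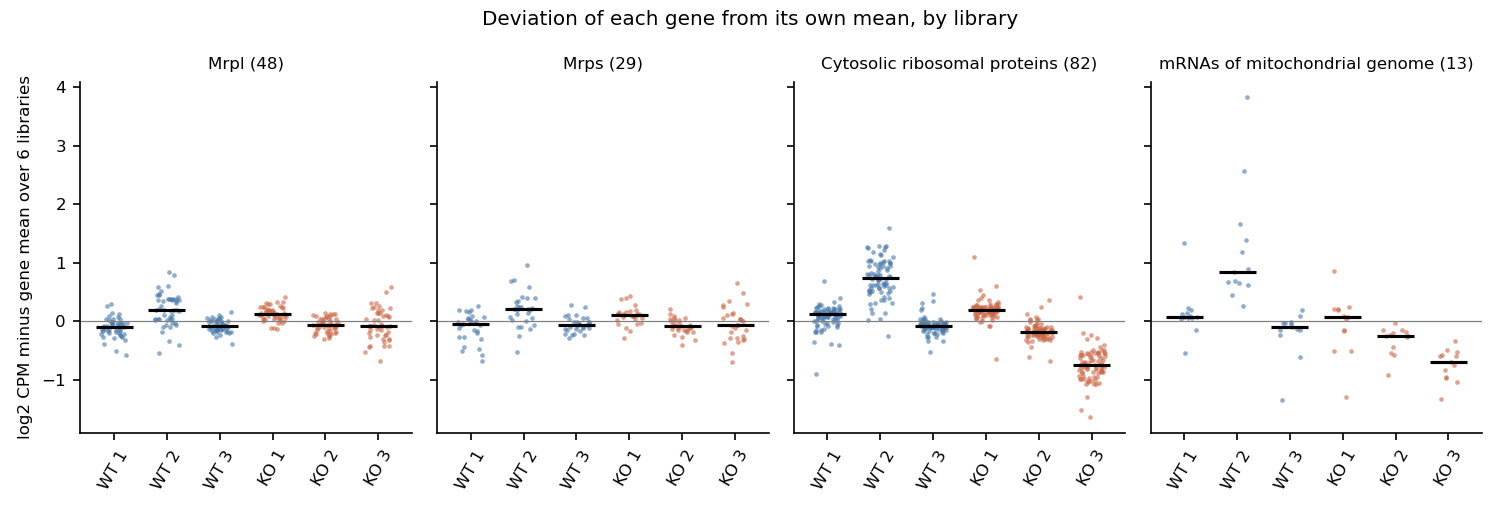
Log2 CPM of each gene minus its own mean over the 6 libraries, for Mrpl, Mrps, cytosolic ribosomal protein genes and the mRNAs of the mitochondrial genome. Each point is a gene and each bar the median of a library. Mrpl and Mrps medians stay within -0.10 and 0.21, whereas those of the other 2 sets run from -0.75 to 0.84.

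Between genotypes, the 82 tested cytosolic ribosomal protein genes had a median log2 fold change of -0.47 with 1 positive, and the 13 mitochondrial mRNAs a median of -0.60 with 0 positive. In neither set did a gene pass the test. At an unadjusted p under 0.05, all of them negative, were 5 of 82 cytosolic ribosomal protein genes (6.10%) and 5 of 13 mitochondrial mRNAs (38.5%), against 11.8% of all genes. Leaving out WT 2 alone, the medians were -0.22 for cytosolic ribosomal protein genes and -0.25 for mitochondrial mRNAs. Leaving out WT 1 alone, they were -0.55 and -0.72. Without WT 2 and KO 3 the medians were -0.01 for cytosolic ribosomal protein genes and -0.08 for mitochondrial mRNAs. The members' medians moved upward too and came to lie above zero: the Mrpl median was then 0.11 with 38 of 48 positive and the Mrps median 0.11 with 20 of 29 positive, against -0.0067 over all genes. Then, too, 0 members were called, against 0.174% of all genes. Leaving out WT 2 alone gave 0.10 (Mrpl) and 0.08 (Mrps), leaving out KO 3 alone 0.02 and -0.0043, and leaving out KO 2 alone 0.015 and -0.04. The sign of the Mrpl median thus changed without any of these 3 libraries, and that of the Mrps median without WT 2.

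**Figure D5:**
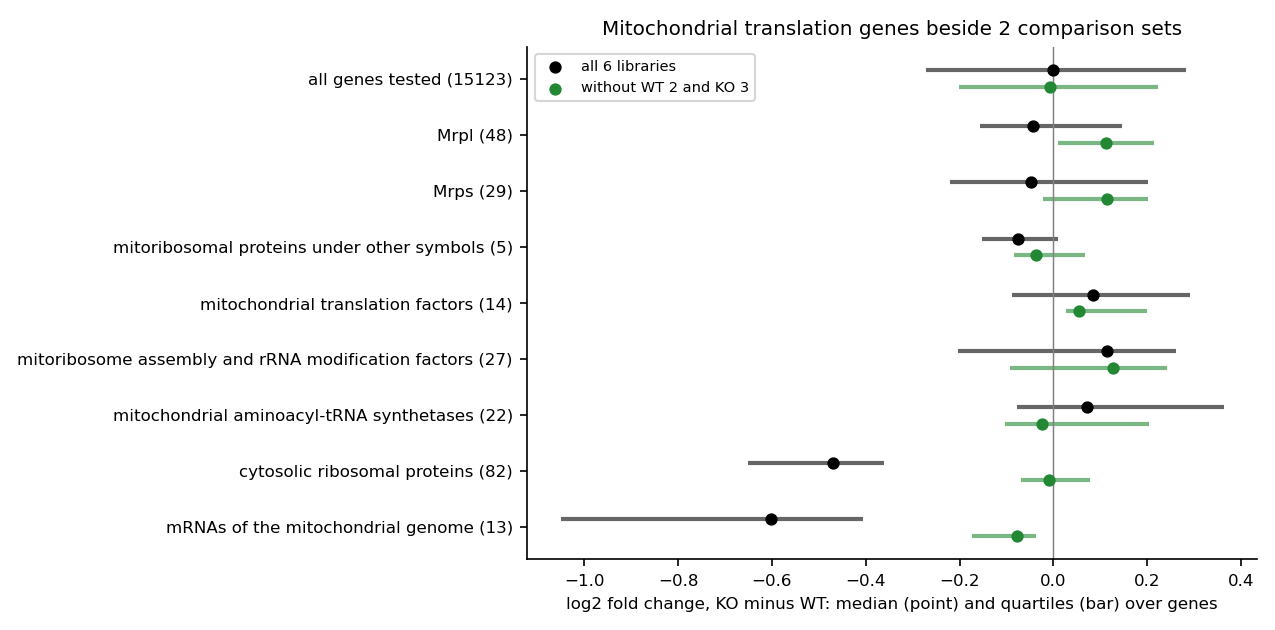
Median (point) and quartiles (bar) of the log2 fold change, KO minus WT, over the genes of each set, with all 6 libraries and without WT 2 and KO 3. The number of tested genes is in brackets. Cytosolic ribosomal protein genes (-0.47) and mitochondrial mRNAs (-0.60) lie apart with all 6 libraries and near the other sets without WT 2 and KO 3. The Mrpl and Mrps medians lie at -0.04 and -0.05, or at 0.11 each without the 2 libraries.

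Base composition moved with the fold changes of members and of other genes alike. Over 77 members the Spearman correlation between the log2 fold change and the GC content of the mRNA was 0.42, and over 12917 genes with a value it was 0.41. These genes share the same libraries, so the correlation is a description. Among the 26 members of lowest GC content (39.6% to 48.2%) 5 were positive, with a median of -0.13, and among the 26 of highest GC content (52.6% to 60.6%) 15 were positive, with a median of 0.09. Without WT 2 and KO 3 these were 18 of 26 with a median of 0.08 and 20 of 26 with a median of 0.14, so the median of the low-GC members changed sign. By library, the members' deviations had a Spearman correlation with GC content of -0.33 in WT 2 and 0.39 in KO 3, and of -0.18 to 0.11 in the other 4. Over 12917 genes it was -0.30, -0.24 and -0.17 in WT and 0.10, 0.03 and 0.47 in KO. For members and for all genes it was negative in each WT and positive in each KO library. The part of this in the fold changes was not tested. Without WT 2 and KO 3 the correlation with the fold change was 0.22 over members and 0.25 over all genes. For transcript length the correlation was -0.02 over members and 0.14 over all genes.

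Other genes of mitochondrial translation were taken from lists by role, and 0 passed the test in any of them. The 5 mitoribosomal proteins under other symbols (Dap3, Ptcd3, Chchd1, Aurkaip1 and Gadd45gip1) had a median log2 fold change of -0.07 with 2 positive, and -0.04 without WT 2 and KO 3. Chchd1 had 40.5, 71.5 and 39.4 CPM in WT and 42.3, 35.5 and 24.6 CPM in KO, a log2 fold change of -0.56 (SE 0.27) with overlap. WT 2 and KO 3 were its outer values, and without them it was -0.04. Aurkaip1 had 0.12 (SE 0.17), or 0.18 without them. Of the 14 translation factors 9 were positive, with a median of 0.08, and 12 with a median of 0.05 without WT 2 and KO 3. Tsfm, the exchange factor that recharges the elongation factor Tufm, had 20.0, 21.7 and 20.0 CPM in WT and 26.8, 29.2 and 35.5 CPM in KO. These groups did not overlap. The log2 fold change was 0.57 (SE 0.17, edgeR adjusted p = 0.339), and 0.49 without WT 2 and KO 3. Taco1, an activator of the translation of cytochrome c oxidase subunit I, had 0.38 (SE 0.17), or 0.25 without WT 2 and KO 3.

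Of 27 assembly and rRNA modification factors 17 were positive, with a median of 0.11, and 18 with a median of 0.13 without WT 2 and KO 3. Mpv17l2, a membrane protein needed for ribosome assembly, had a log2 fold change of 0.35 (SE 0.15), or 0.26 without WT 2 and KO 3. Mettl15, a methyltransferase of the small subunit's rRNA, had -0.53 (SE 0.23), or -0.40 without them. Of 22 mitochondrial aminoacyl-tRNA synthetase and amidotransferase genes 13 were positive, with a median of 0.07. Without WT 2 and KO 3 this became 10 of 22 with a median of -0.02, and without KO 3 alone likewise 10 of 22 with -0.02. Aars2, the mitochondrial alanyl-tRNA synthetase, had 15.9, 13.9 and 21.0 CPM in WT and 23.5, 21.5 and 42.6 CPM in KO. Every KO value lay above every WT value, KO 3 by far. Its log2 fold change was 0.78 (SE 0.28, edgeR adjusted p = 0.375), and 0.29 without WT 2 and KO 3. Ears2, for glutamate, had 9.49, 11.5 and 16.0 CPM in WT and 8.55, 7.55 and 7.04 CPM in KO, with -0.68 as its log2 fold change (SE 0.24, edgeR adjusted p = 0.375). At an unadjusted p under 0.05 these 4 lists held 4 positive and 2 negative genes, 6 of 68 (8.82%), against 11.8% of all genes.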

How the data were processed

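Poly(A) RNA libraries were made with a stranded kit, per the labels' protocols. The authors deposited unnormalized read counts for each gene, made with HISAT2 2.1.0, featureCounts 1.6.2 and build mm10, per the submitters' processing notes. Neither the annotation release nor the counting's strand option is stated in the labels or notes used here. All 6 columns were matched to samples by name, and 0 columns were identical.

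Gene symbols, positions, lengths and GC content came from GENCODE release M 21, and 53620 of 53715 identifiers had a symbol. Genes passing filterByExpr (minimum count 10, minimum total 15) numbered 15123. The quasi-likelihood test of edgeR 4.0.16 (with limma 3.58.1, R 4.3.3) compared KO with WT after TMM scaling, genotype as the only term and Benjamini-Hochberg adjustment over all genes tested, threshold 0.05. The log2 CPM values used a prior count of 2. TPM was computed from the counts and summed exon lengths. Depth of 18034204 to 33617762 counts per library sets the precision, and limits of 3 counts for a 0 cover counting error only. The fit was tested on simulated data. The alternatives tried were limma-voom, DESeq2 1.42.0, its size factors in edgeR, other filters, leaving out genes of the mitochondrial genome, a replicate block, an adjusted p of 0.1, and libraries left out. Transcript length was varied after seeing the data. Further software was pandas 2.3.3, matplotlib 3.10.9 and Python 3.11.15.

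The gene family to describe and the lists were chosen with earlier results of these data known. Members named were, per subunit, the 5 of smallest unadjusted p, the 4 of highest and 2 of lowest TPM, a set of genes chosen for their role, Mrpl53, and in each list the 2 genes of smallest p. Others, the members without overlap, the opposite-strand partners and Slc5a3 among them, were chosen after their values were seen.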

Additional observations from a re-analysis of the deposited data

How the results depend on the processing

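In all 14 alternatives 0 Mrpl and 0 Mrps genes were called, with a lowest adjusted p of 0.0631 (edgeR without a filter) and of 0.0940 with DESeq2. At an adjusted p of 0.1, 13 genes of all tested passed. Over all genes the calls numbered 9, against 168 with DESeq2, 663 without a filter, 27 without WT 2 and KO 3, and 0 to 17 with each library left out in turn (17 without WT 2, 1 without KO 1, 0 without KO 2). A replicate block gave 5 calls and 0 among members. The replicate numbers were not taken as pairs, since same-numbered libraries had correlations of -0.11, 0.10 and 0.09. In the 4 lists of other mitochondrial translation genes, Aars2 alone passed, without a filter (edgeR adjusted p = 0.0179, 1 gene in place of 0). The comparison sets had more calls without a filter, all lower in KO. These were 13 of 83 cytosolic ribosomal protein genes and 5 of 13 mitochondrial mRNAs, against 663 of 27874 genes. DESeq2 called 1 mitochondrial mRNA, also lower in KO, and 0 cytosolic ribosomal protein genes. Without a filter the standard errors differed less between genes, from 0.206 to 0.234 over members against 0.144 to 0.304 with the filter. With the filter but without KO 3, the log2 fold change of Aars2 was 0.41 (edgeR adjusted p = 0.763). The subunit medians moved to 0.11 (Mrpl) and 0.11 (Mrps) without WT 2 and KO 3. The cause was not tested. That setting reversed the sign of 9 of 33 named members, none of them called in any setting: Mrps21 (0.015), Mrps25 (0.17), Mrpl34 (0.082), Mrpl45 (0.16), Mrps7 (0.13), Mrps36 (0.073), Mrpl18 (0.0005), Mrpl2 (0.14) and Mrpl11 (0.018). With each library left out in turn, the range of the log2 fold change crossed 0 for Mrpl33 (-0.48 to 0.0006), Mrpl19 (-0.092 to 0.35), Mrps23 (-0.035 to 0.25), Mrps25 (-0.42 to 0.084), Mrpl34 (-0.17 to 0.13), Mrpl45 (-0.11 to 0.066), Mrps7 (-0.16 to 0.15), Mrps36 (-0.32 to 0.011) and Mrpl2 (-0.15 to 0.15).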

Other observations

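The table also listed 5 pseudogenes of members, which are not protein-coding and were not counted among them. Mrpl48-ps, a processed copy of Mrpl48 at chr4:88599175-88599810 (mm10), was singled out after its values were seen. Its counts were 132, 110 and 143 in the WT libraries against 30, 25 and 38 in those of KO, or 5.33, 7.34 and 4.21 CPM against 1.36, 1.07 and 1.86 CPM. Each KO value lay well below each WT value, and without WT 2 and KO 3 the difference was about as large (log2 -1.96). With all 6 libraries it was -1.97 on the log2 scale with an SE of 0.34, above the threshold by edgeR (adjusted p = 0.172) and below it by DESeq2 (adjusted p = 0.00021). Over all settings the adjusted p ran from 5e-05 to 0.488. Mrpl48 itself, on chromosome 7, had 42.4, 63.6 and 39.7 CPM in WT and 52.5, 47.2 and 45.4 CPM in KO, a log2 fold change of -0.0039 (SE 0.20). Reads can be shared between the copy and its parent. Of the other 4 pseudogenes, Mrpl23-ps1 had 291 counts over all libraries, Mrps36-ps1 136, Mrps36-ps2 44 and Mrps36-ps3 0.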
